A study of Homo sapiens with 4 samples.

Results

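The outermost 5 Mb of the short arms of chromosomes 1 to 12 and 16 to 20 were examined in SH-SY5Y cells, a human neuroblastoma line that takes on neuron-like features in retinoic acid. Rows of 2 lists of enriched regions were taken when they started in the first 5 Mb of one of these 17 chromosomes, whatever their width or score. This gave 1198 of 32543 CHD5 peaks and 13785 of 257073 H3K27me3 regions. Positions from 5 to 20 Mb of the same chromosomes, with 2993 CHD5 peaks and 29192 H3K27me3 regions, served for comparison. The CHD5 list comes from cells that express FBio-CHD5, a tagged protein pulled down with streptavidin beads, and the H3K27me3 list from an antibody precipitation of the same FBio-CHD5 cells. A streptavidin pull-down from Fbio-Ctrl cells and an input DNA library of FBio-CHD5 cells belong to the series, and region lists for them were not used here. All cells had been in 10 uM retinoic acid for 8 days, so no untreated state is compared. Each group is 1 library, the promoter that drives the tagged protein is not stated in the labels, and no replicate error exists for any value. The lists give no read counts, so depth is unknown, and the intervals below cover counting error only. They treat rows as independent, although neighbouring rows lie in clusters, and are therefore likely to be too narrow.

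CHD5 is a chromodomain helicase that moves nucleosomes as part of a NuRD-type complex and is expressed mainly in neurons. Its own gene lies on the short arm of chromosome 1, in a stretch that neuroblastomas often lose. H3K27me3 is the histone mark that Polycomb repressive complex 2 writes over silent developmental genes, often as broad domains. Human chromosome ends are rich in genes on many arms, and the outermost stretches carry segments that are nearly identical between several chromosomes. All positions are in hg19 and are counted from 1. No gene name or sequence is given for them, because a sequence and annotation of that build were not used here.

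Near the ends, CHD5 and H3K27me3 met more often than further in. Of the 1198 CHD5 peaks of the first 5 Mb, 72 shared at least 1 bp with an H3K27me3 region, or 6.01% (Wilson 95% interval 4.80% to 7.50%). From 5 to 20 Mb, 52 of 2993 peaks did, or 1.74% (1.33% to 2.27%), and over the whole CHD5 list the share was 2.19%. The share at the ends was 3.46 times that of 5 to 20 Mb, with a counting interval of 2.44 to 4.91. H3K27me3 regions joined across gaps of up to 3 kb spanned 11.98% of the bases at the ends and 8.69% further in. Only 6.18% and 1.90% of the CHD5 peaks touched these joined stretches, below their share of bases in both windows. Both lists were also denser at the ends. CHD5 peaks numbered 14.1 per Mb in the first 5 Mb and 11.7 per Mb from 5 to 20 Mb, a ratio of 1.20 (exact 95% interval 1.12 to 1.28). H3K27me3 regions numbered 162 per Mb in the first 5 Mb and 114 per Mb from 5 to 20 Mb, a ratio of 1.42 (1.39 to 1.45).

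The excess of overlap and of CHD5 lay in the outermost 1-Mb steps. Counted from the end, the 5 steps held 16.3, 17, 15.8, 12.4 and 8.94 CHD5 peaks per Mb. The second step was the densest of all 20 steps and the fifth the sparsest, while the 15 steps from 5 to 20 Mb ranged from 9.12 to 15.2 per Mb. H3K27me3 did not follow this order. Its 5 outer steps held 149, 163, 131, 158 and 210 regions per Mb, so that the step with the fewest CHD5 peaks had the most H3K27me3 regions of all 20. Steps from 5 to 20 Mb ranged from 67.1 to 168 regions per Mb, and the 4 outermost steps lay within that range.

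Overlap was high in the outermost pair of steps. In the first step 25 of 277 CHD5 peaks overlapped H3K27me3, or 9.03% (Wilson 95% interval 6.19% to 12.98%), and in the second 25 of 289 did, or 8.65% (5.93% to 12.5%). Steps 3, 4 and 5 had 4.09%, 2.37% and 3.95%. Each of the 15 steps from 5 to 20 Mb lay between 0.388% and 4.52%, below both outermost steps. No sharp change in the share marked the limit of 5 Mb. Just inside it the fifth step had 6 overlapping peaks of 152, and outside it the sixth had 3 of 160, or 1.88%, and the seventh 9 of 199, or 4.52%. The first 3 Mb taken alone had 61 overlapping peaks of 835, or 7.31% (5.73% to 9.27%), and positions 3 to 5 Mb had 11 of 363, or 3.03% (1.70% to 5.34%).

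**Figure D1:**
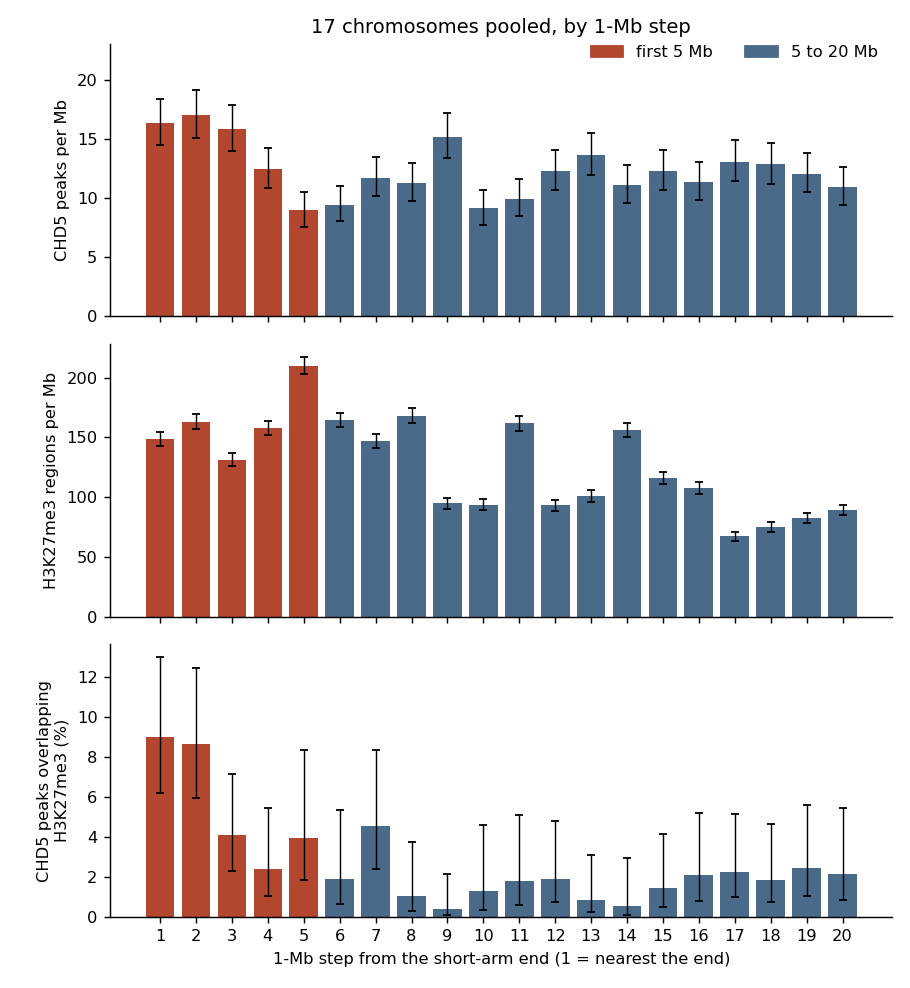
CHD5 peaks per Mb, H3K27me3 regions per Mb and the percentage of CHD5 peaks that overlap H3K27me3, for each 1-Mb step from the short-arm end, summed over 17 chromosomes. Bars are values, and lines are 95% counting intervals (exact Poisson for densities, Wilson for shares). CHD5 density is 16.3, 17 and 15.8 per Mb in the 3 outermost steps and 8.94 in the fifth, and the overlap share is 9.03% and 8.65% in the outermost pair of steps.

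The chromosomes fell into 3 patterns when the first 5 Mb were set against 5 to 20 Mb. On 6 of them, chromosomes 7, 10, 12, 17, 18 and 19, CHD5 was denser at the end and H3K27me3 sparser. On 5 of them, chromosomes 1, 3, 5, 8 and 9, CHD5 was sparser at the end and H3K27me3 denser. On the other 6, chromosomes 2, 4, 6, 11, 16 and 20, both were denser, and on none were both sparser. The direction of the CHD5 ratio lay beyond counting error on 9 of the 17. Its interval was wholly above 1 on 6 chromosomes (7, 10, 12, 16, 17 and 19) and wholly below 1 on 3 (1, 3 and 5), and it held 1 on 8.

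Among the chromosomes with dense CHD5 at the end, chromosome 19 had the highest level, with 30.2 peaks per Mb in the first 5 Mb against 17.2 per Mb from 5 to 20 Mb. Its H3K27me3 regions numbered 84.2 per Mb at the end against 158 per Mb further in. Chromosome 7 had 24.8 CHD5 peaks per Mb at the end against 14.9, a ratio of 1.66 (exact interval 1.32 to 2.08), with 69.0 H3K27me3 regions per Mb against 172. The contrast was widest on chromosome 10, where the whole first 5 Mb held 35 H3K27me3 regions, or 7.00 per Mb against 54.6, beside 75 CHD5 peaks, or 15 per Mb against 9.73. Chromosome 18 belongs here by direction only, since its CHD5 densities were 6.00 and 5.87 per Mb. Its stretch from 5 to 20 Mb includes 3.31 Mb with no row of either list, around the centromere, which lowers both of its densities there.

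The chromosomes with dense H3K27me3 at the end were led by chromosome 5. It had 479 H3K27me3 regions per Mb in the first 5 Mb against 111 per Mb from 5 to 20 Mb, and 4.60 CHD5 peaks per Mb against 7.67, the lowest CHD5 density of the 17 ends. Chromosome 8 had 342 regions per Mb at the end against 226, with 10.0 CHD5 peaks per Mb against 12.1. Chromosome 9 had 220 regions per Mb against 67.7. The CHD5 ratio was lowest on chromosome 3, at 0.545, followed by 0.600 on chromosome 5 and 0.618 on chromosome 1. On chromosome 3 the H3K27me3 ratio of 1.10 had an interval of 0.925 to 1.30.

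Where both lists were denser at the end, the sizes differed widely. Chromosome 16 had 17 CHD5 peaks per Mb in the first 5 Mb against 9 per Mb from 5 to 20 Mb, the largest CHD5 ratio at 1.89 (1.42 to 2.50). It also had 141 H3K27me3 regions per Mb against 36.3. Chromosome 6 had 415 H3K27me3 regions per Mb against 101, with CHD5 at 10 against 8.6 per Mb. Chromosome 2, with 21.4 against 17.3 CHD5 peaks per Mb, had 39.8 against 19.9 H3K27me3 regions per Mb. Rows were unevenly shared: chromosomes 19, 7, 2 and 17 held 482 of the 1198 CHD5 peaks, or 40.2%, and chromosomes 5, 6 and 8 held 6182 of the 13785 H3K27me3 regions, or 44.8%. Without chromosome 5, the H3K27me3 ratio over the other chromosomes was 1.24.

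**Figure D2:**
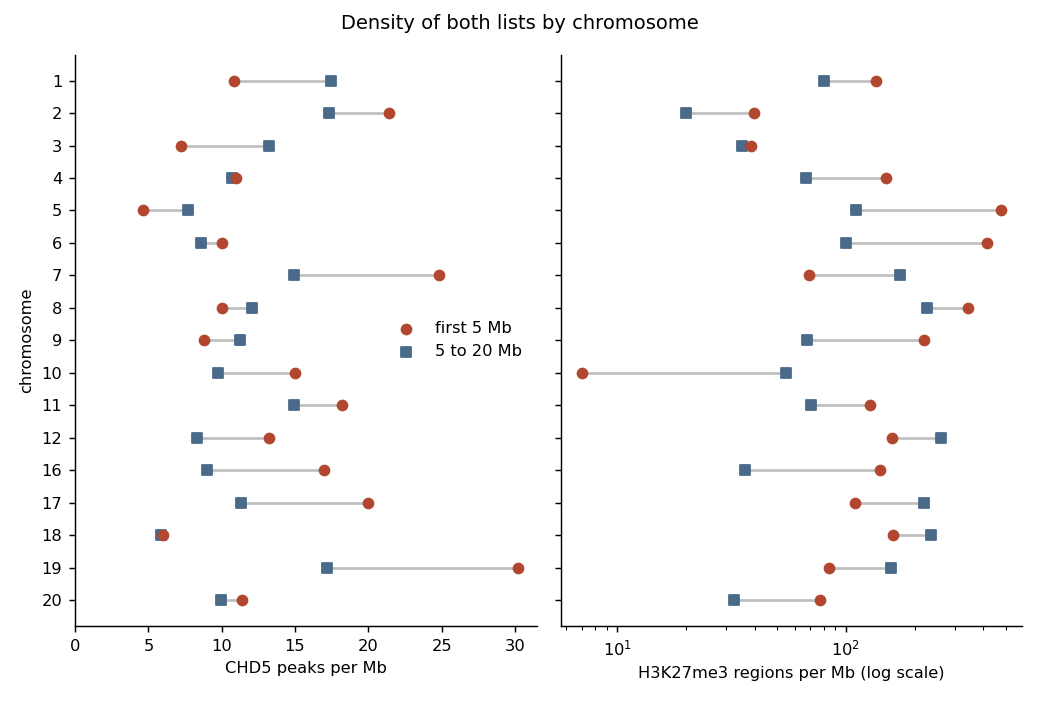
Density of CHD5 peaks (left, linear axis) and H3K27me3 regions (right, log axis) on each chromosome, with circles for the first 5 Mb and squares for 5 to 20 Mb. Circles lie right of squares on 12 of 17 chromosomes for CHD5 and on 11 of 17 for H3K27me3, and both on only 6.

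At the scale of single 1-Mb steps the lists tended to take turns, at the ends and further in. Across the 85 steps of the first 5 Mb, the numbers of CHD5 peaks and H3K27me3 regions had a Spearman rho of -0.443, the same as the -0.443 of the 255 steps from 5 to 20 Mb. All steps come from the same 2 libraries, and their base composition was not measured, so the rho is a description. With limits set after the values were seen, 24 of the 85 steps had at least 20 CHD5 peaks, 25 had at least 200 H3K27me3 regions, and 1 had both. Steps with at least 200 H3K27me3 regions had a median of 5 CHD5 peaks, and the others a median of 16.5. By the same limits, 54 of the 255 steps from 5 to 20 Mb reached the CHD5 limit, 62 the H3K27me3 limit and 5 both. The corresponding medians from 5 to 20 Mb were 4 and 12 CHD5 peaks.

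Chromosome 8 showed the sharpest turn. Its 5 steps from the end held 21, 28, 0, 1 and 0 CHD5 peaks, and 18, 0, 770, 387 and 536 H3K27me3 regions. Chromosome 9 ran the other way, with 850, 244, 0, 3 and 2 H3K27me3 regions beside 5, 1, 18, 9 and 11 CHD5 peaks. Its outermost step had the most H3K27me3 regions of the 85, and domains covered 66.7% of it. Chromosome 5 had 10, 6, 0, 0 and 7 CHD5 peaks and 100, 505, 769, 504 and 519 H3K27me3 regions. On chromosome 12 the fifth step held 714 H3K27me3 regions and 3 CHD5 peaks, after steps of 13, 17, 20 and 13 CHD5 peaks with 41, 2, 4 and 33 regions.

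The steps richest in CHD5 were the third step of chromosome 7 and the second of chromosome 19, with 36 peaks each. They were followed by the second of chromosome 7 and step 3 of chromosome 19 with 34 each, and by the second of chromosome 2 with 32. The second step of chromosome 7 was the only one that was rich in both by the limits above, with 249 H3K27me3 regions, and it held 7 overlapping CHD5 peaks, the most of the 85. The second step of chromosome 19 came near, with 192 regions and 2 overlapping peaks.

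**Figure D3:**
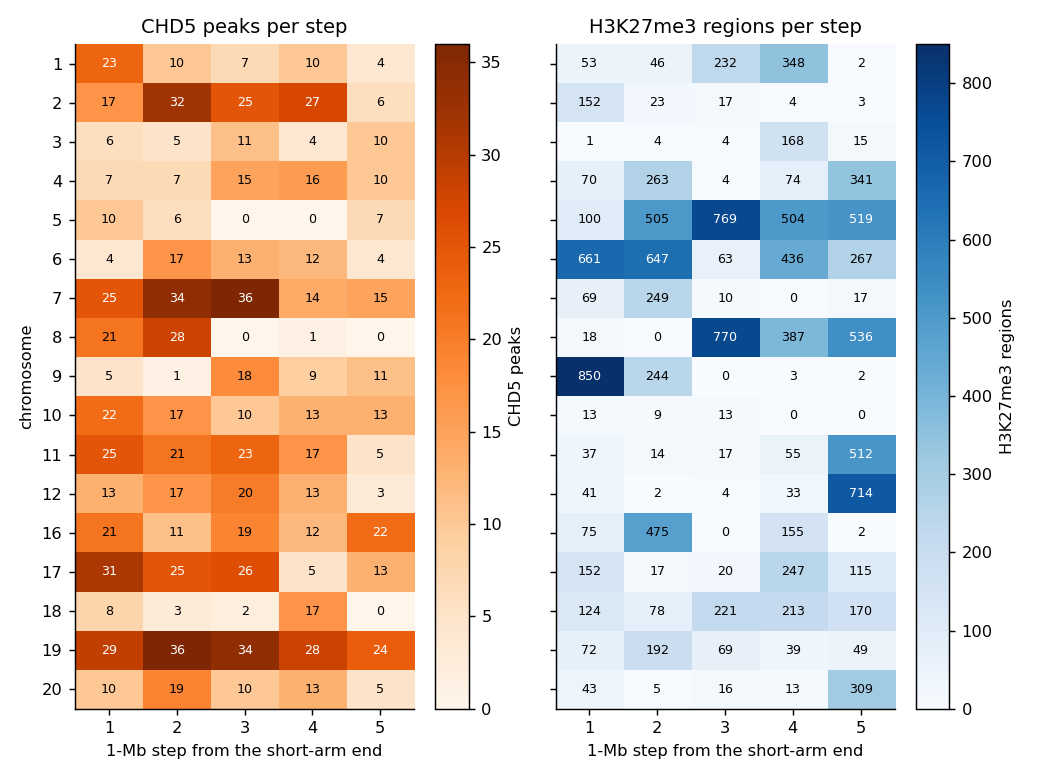
Number of CHD5 peaks (left) and H3K27me3 regions (right) in each of the 5 outer 1-Mb steps of each chromosome, with the count printed in each cell and darker shades for higher counts. Dark cells seldom coincide: chromosome 8 changes from 28 CHD5 peaks and 0 H3K27me3 regions in step 2 to 0 peaks and 770 regions in step 3.

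The direction of the overlap difference was the same on most chromosomes, though single chromosomes had few overlapping peaks. The overlap share was higher in the first 5 Mb than from 5 to 20 Mb on 13 of 17 chromosomes. At least 1 overlapping peak lay in 14 ends and, from 5 to 20 Mb, on all 17 chromosomes. Among the 13, the intervals of both windows were apart only on chromosomes 7 and 4. Chromosomes 9, 12 and 18 had only 2, 1 and 2 overlapping peaks at the end. Chromosome 7 contributed the most, with 17 of 124 peaks at the end, or 13.7% (Wilson 95% interval 8.74% to 20.9%), against 5 of 224, or 2.23% (0.957% to 5.12%). Without chromosome 7 the shares were 5.12% at the ends and 1.70% from 5 to 20 Mb, a ratio of 3.02. Chromosome 4 had 5 of 55 peaks at the end, or 9.09%, against 1 of 160, or 0.625%. Chromosome 17 had 7 of 100, or 7.00%, against 4 of 170, or 2.35%, and chromosome 19 had 9 of 151, or 5.96%, against 8 of 258, or 3.10%.

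The other 4 chromosomes went the other way, all with few overlaps. Chromosomes 3, 8 and 20 had no overlapping peak among 36, 50 and 57 at the end, which by a limit of 3 counts allows shares of up to 8.33%, 6.00% and 5.26% (upper Wilson limits 9.64%, 7.13% and 6.31%). Chromosome 10 had 1 of 75 at the end, or 1.33%, against 4 of 146, or 2.74%. The intervals of both windows overlapped on each of these 4. The share was also higher at the end in each of the 3 patterns of density. It was 6.78% against 2.27% where CHD5 was denser and H3K27me3 sparser, 4.35% (9 of 207) against 1.62% (15 of 925) where CHD5 was sparser and H3K27me3 denser, and 5.84% against 1.32% where both were denser.

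**Figure D4:**
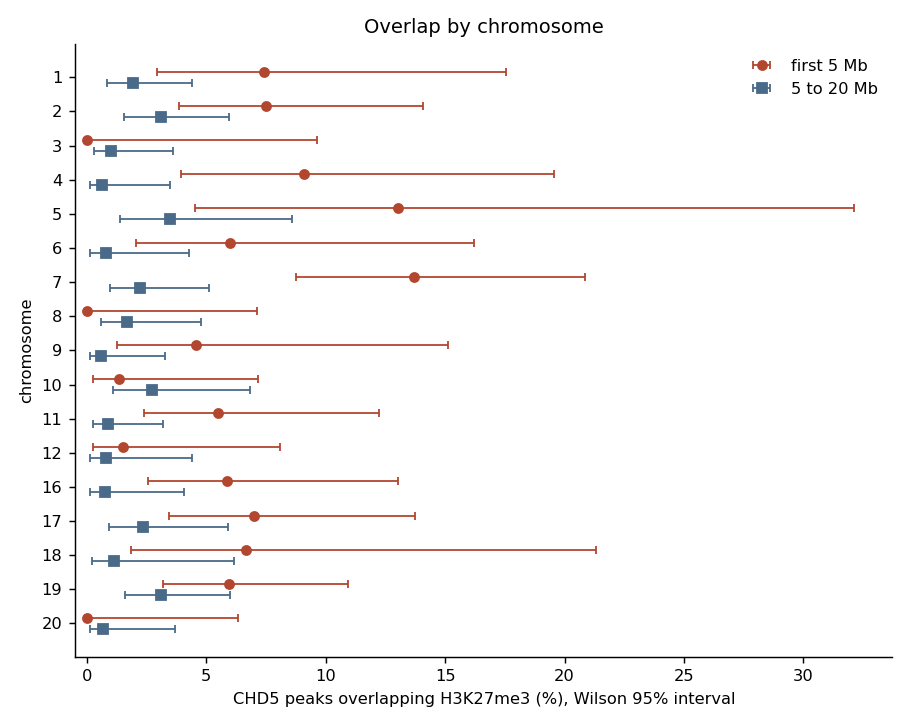
Percentage of CHD5 peaks that overlap H3K27me3 on each chromosome, with circles for the first 5 Mb, squares for 5 to 20 Mb and lines for Wilson 95% intervals. Circles lie right of squares on 13 of 17 chromosomes, with 13.7% against 2.23% on chromosome 7, and the intervals of most single chromosomes overlap.

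Overlap shares differed with the number of H3K27me3 regions in a step, given here in 3 wide classes that were chosen after the values were seen. In steps with 1 to 19 regions, 14 of 420 CHD5 peaks overlapped at the ends, or 3.33% (2.00% to 5.52%), against 18 of 1599, or 1.13% (0.713% to 1.77%). In steps with 20 to under 200 regions the shares were 7.40% (5.42% to 10.03%) and 3.27% (2.10% to 5.05%). In steps with at least 200 regions they were 12.1% (8.08% to 17.8%) and 3.49% (2.13% to 5.68%). The share was higher at the ends in each class. Steps without any H3K27me3 region are in no class, and were 6 of 85 at the ends and 27 of 255 from 5 to 20 Mb. Numbers of regions within a class were not matched between the windows, and the part of H3K27me3 density in the higher overlap was not tested.

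CHD5 peaks at the ends also lay closer to H3K27me3, with overlapping peaks counted at a distance of 0 kb. The median distance to the nearest region was 91.03 kb in the first 5 Mb, with quartiles of 27.2 and 205 kb, against 172 kb from 5 to 20 Mb, with quartiles of 65.2 and 329 kb. Within 10 kb lay 15.4% of the CHD5 peaks at the ends and 7.58% of those further in, and within 50 kb 35.6% and 21.05%. Within 100 kb lay 52.0% and 33.5%. By chromosome, the median distance was longer at the end on chromosomes 3, 8, 9 and 10, and shorter on the rest. On chromosome 10 it was 306 kb at the end against 179 kb. In the outermost step the median distance was 60.8 kb, the lowest of the 20 steps.

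Joining H3K27me3 regions across gaps of up to 3 kb gave 1417 domains in the first 5 Mb, or 16.7 per Mb, and 3630 from 5 to 20 Mb, or 14.2 per Mb. They spanned 11.98% of the bases at the ends and 8.69% of those further in. Domain widths had a median of 2453 bp at the ends, with quartiles of 284 and 7541 bp, against 2171.5 bp, with quartiles of 215 and 6406 bp. At the ends 32 of 1417 domains, or 2.26%, were at least 50 kb wide, against 50 of 3630, or 1.38%. Domain density depended on how far the ends were taken, since the first 3 Mb had 14.1 domains per Mb and positions 3 to 5 Mb had 20.5.

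A CHD5 peak lay in 62 domains of the first 5 Mb, or 4.38% (Wilson 95% interval 3.43% to 5.57%), against 52 from 5 to 20 Mb, or 1.43% (1.09% to 1.87%), and in 1.72% of domains over all chromosomes. The share of domains with CHD5 was higher at the ends in each width class. Of the domains of at least 50 kb, 8 of 32 held CHD5 at the ends, or 25% (13.3% to 42.1%), against 2 of 50, or 4.00% (1.10% to 13.5%), and 12.6% over all chromosomes. From 20 to 50 kb, 8 of 81 did, or 9.88% (5.09% to 18.3%), against 3 of 210, or 1.43% (0.487% to 4.12%), and 4.01% over all chromosomes. From 5 to 20 Mb the shares in both of these classes were below those over all chromosomes, though their intervals held the latter. Domains of 5 to 20 kb held CHD5 in 6.12% (4.15% to 8.95%) and 2.21% (1.42% to 3.42%) of cases, and those of 1 to 5 kb in 2.86% (1.64% to 4.93%) and 0.997% (0.558% to 1.78%). Under 1 kb the shares were 2.03% and 1.21%. The intervals of both windows overlapped under 1 kb, from 1 to 5 kb and from 50 kb upward, and did not overlap from 5 to 20 kb and from 20 to 50 kb. Some of the 8 domains of at least 50 kb that held CHD5 at the ends lay close together. Those of 124 and 86.3 kb were neighbours on chromosome 7. Those of 67.8, 60.9 and 90.01 kb lay between 1110044 and 1354508 on chromosome 16. The 8 are therefore not 8 separate places.

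**Figure D5:**
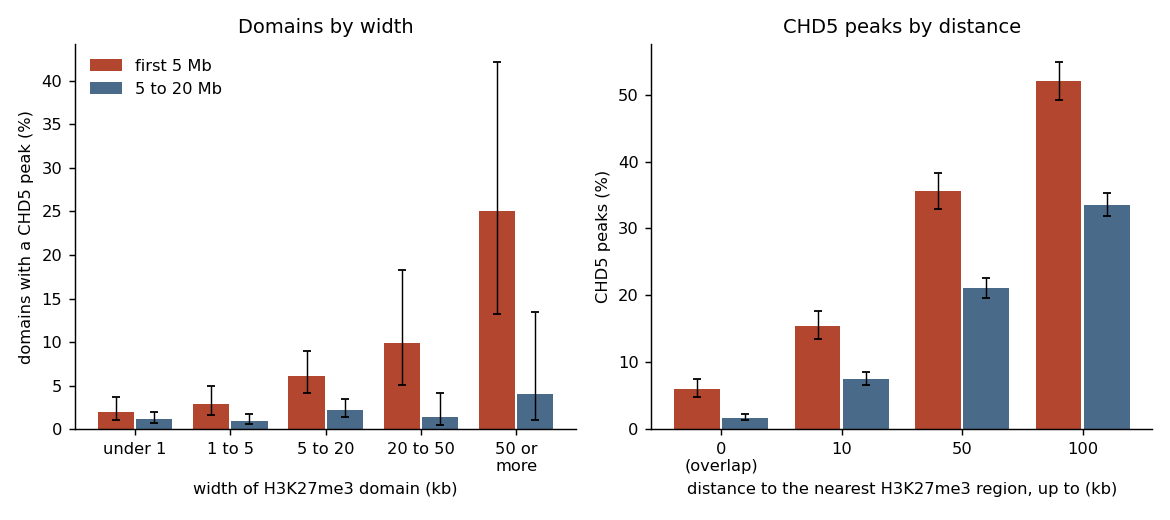
Left, percentage of H3K27me3 domains that hold a CHD5 peak, by domain width; right, percentage of CHD5 peaks within a given distance of the nearest H3K27me3 region. Bars for the first 5 Mb stand left of those for 5 to 20 Mb, with lines for Wilson 95% intervals; among domains of at least 50 kb the values are 25% and 4.00%, and within 100 kb of H3K27me3 lie 52.0% and 33.5% of CHD5 peaks.

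The widest domain at a chromosome end lay on chromosome 6 from 3364824 to 3548363. It spanned 184 kb in 241 H3K27me3 regions and held no CHD5 peak, with 1 within 100 kb on either side. Chromosome 6 also had the second widest, of 139 kb from 151917 to 290682, again with no CHD5 peak inside and 3 in the flanks. Another domain of that chromosome, of 96.4 kb from 325065 to 421417, held 1. That CHD5 peak also lies within 100 kb of the second widest domain. Of the 10 widest domains, 5 held CHD5.

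Chromosome 7 carried the pair of wide domains with the most CHD5. The domain from 1348462 to 1472295 spanned 124 kb, of which H3K27me3 regions covered 76.3%, and held 3 CHD5 peaks with 5 more in the flanks. The domain from 1224357 to 1310618 spanned 86.3 kb, with 83.1% covered, and also held 3, with 6 in the flanks. These domains lie less than 100 kb apart, so CHD5 peaks inside one can also count in the flanks of the other. The other wide domains that held CHD5 had 1 peak each and lay on chromosome 4 from 4098390 to 4194662, with 96.3 kb, and on chromosome 16 from 1264496 to 1354508, with 90.01 kb. The CHD5 peak in that chromosome 16 domain lay in a gap between joined regions and shared no bp with H3K27me3. Peaks in such gaps count as held, so 74 CHD5 peaks of the ends lay in domains and 72 overlapped H3K27me3. Domains of 105 kb on chromosome 1 from 3130273 to 3235599, of 103 kb on chromosome 12 from 3984622 to 4087728 and of 85.2 kb on chromosome 9 from 32767 to 118013 held none.

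The 72 overlapping peaks were often covered over much of their length. The median share of the peak inside H3K27me3 was 46.7% at the ends against 29.4% from 5 to 20 Mb, and 35 of the 72 were covered over at least 50%. They lay in domains with a median width of 8.44 kb and quartiles of 2.50 and 29.0 kb, and 12 lay in domains of at least 50 kb. Their median score, the authors' value per peak, was 96.1 against 110 for the other CHD5 peaks of the first 5 Mb, and their median width was 1428.5 bp against 1514 bp.

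The overlapping peak with the highest score, 3100, lay on chromosome 7 from 1395499 to 1399295, inside the 124 kb domain, with 981 bp of its 3797 bp in H3K27me3. The next, with 1822, lay on chromosome 2 from 1218152 to 1227555, with 6067 of 9404 bp in H3K27me3. A chromosome 17 peak from 1211117 to 1215370 reached 1169 and had 94.7% of its length in H3K27me3, and another, from 843633 to 846563, reached 524 and had 87.8%. Chromosome 17 held 4 of the 10 highest, the others being the peaks from 144205 to 146706 and from 4490333 to 4492467, with shares of 9.99% and 12.6%. A chromosome 4 peak from 1420838 to 1423294 reached 859 with 92.6% covered, and another, from 3859956 to 3861800, reached 575 with 32.2%. The remaining pair lay on chromosome 16 from 1141719 to 1143797, with 34.5%, and on chromosome 11 from 410105 to 413078, with 28.5%. Of these 10 peaks, 8 started in the first 2 Mb, beside 50 of all 72 overlapping peaks of the ends.

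Of the 10 highest-scoring CHD5 peaks of the ends, 9 started in the first 2 Mb and 4 lay on chromosome 2. Of all 1198 CHD5 peaks of the ends, 277 started in the first 1-Mb step and 289 in the second, and 107 lay on chromosome 2. Those on chromosomes 7 and 2 described above overlapped H3K27me3, 2 of 10 beside 6.01% of all CHD5 peaks of the ends. The nearest region was between 5.26 and 73.5 kb away for 6 others, less than the median of 91.03 kb over all CHD5 peaks of the ends, and 355 and 379 kb away for the peaks on chromosomes 16 and 10. Those on chromosome 2 lay from 1526212 to 1539169, with the shared top score of 3100, from 435454 to 440084 with 2593 and from 853570 to 858861 with 1420. The third peak with a score of 3100 lay on chromosome 10 from 488252 to 496491. Chromosome 5 held peaks from 629123 to 634073 with 2565 and from 1332290 to 1334443 with 1304, chromosome 11 one from 1362115 to 1364009 with 2536, and chromosome 16 one from 4363148 to 4365652 with 1850.

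CHD5 peaks at the ends were somewhat narrower and lower in score than those further in. Their median width was 1512.5 bp with quartiles of 1122 and 2125 bp, against 1615 bp with quartiles of 1181 and 2281 bp. The median was lower at the end on 13 of 17 chromosomes, with the largest gap on chromosome 7, at 1917 bp against 2645.5 bp. Median scores were 109 and 118, with a higher median at the end on chromosomes 3, 4 and 17 and a lower one on the rest. In the second step the median score was 125, above that of 5 to 20 Mb. H3K27me3 regions had a median width of 231 bp at the ends and 234 bp further in. That difference of 3 bp changed sign when positions from 5 to 15 Mb were the comparison, at 231 and 228 bp.

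Of the 10 widest CHD5 peaks of the ends, 5 lay on chromosome 2, and 3 started in the outermost 100 kb. These 3 were alike in width and score. They lay on chromosome 9 from 21848 to 31166, with 9319 bp and a score of 255, on chromosome 1 from 21904 to 31480, with 9577 bp and 213, and on chromosome 19 from 63512 to 72591, with 9080 bp and 274. Each had an H3K27me3 region within 2.95 kb and overlapped none. The placement of reads that match several chromosome ends is not stated in the labels, and whether these peaks share reads was not tested. The widest of all was the peak of 12958 bp on chromosome 2 named above. A peak of 11720 bp on chromosome 17 from 2074591 to 2086310 had a score of 82.6, below the median of 109. Further wide peaks of chromosome 2 lay from 3103547 to 3111505 and from 3649384 to 3657140, and one of 7642 bp from 1245153 to 1252794.

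Both lists reached close to the sequenced ends on several arms. The first CHD5 peak started at 9.90 kb on chromosome 9, at 21.9 kb on chromosome 1 and at 26.98 kb on chromosome 17, and as far in as 616 kb on chromosome 4, with a median of 72.2 kb over the 17 chromosomes. The first H3K27me3 region started at 9.99 kb on chromosome 5, at 14.8 kb on chromosome 2 and at 18.6 kb on chromosome 18, and as far in as 934 kb on chromosome 3, with a median of 61.3 kb. CHD5 came first on 8 chromosomes and H3K27me3 on 9. Leaving out the outermost 500 kb, the overlap share was 5.53%.

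The ends of the long arms of the same 17 chromosomes are the most similar stretches. Their last 5 Mb, measured back from the highest row end in either list, had 68 overlapping peaks among 1349, or 5.04% (Wilson 95% interval 4.00% to 6.34%). The 15 Mb before them had 75 among 3472, or 2.16% (1.73% to 2.70%). The ratio was 2.33 (1.69 to 3.22) on the long arms, beside 3.46 (2.44 to 4.91) on the short arms, and the overlap share of short-arm ends was 1.19 times that of long-arm ends (0.864 to 1.65). The last 5 Mb of chromosomes 13, 14, 15, 21 and 22, which have no short arm in the comparison, had 9 overlapping peaks of 331, or 2.72% (1.44% to 5.09%). That interval holds both the 2.19% of the whole list and the 5.04% of the 17 long-arm ends. Short-arm ends had fewer CHD5 peaks, at 14.1 per Mb against 15.9 on the long arms (ratio 0.888, 0.821 to 0.961), and more H3K27me3 regions, at 162 against 120 per Mb (ratio 1.35, 1.32 to 1.39). Several other contrasts had the same direction on the long arms, the densities of both lists among them. CHD5 peaks per Mb in the last 5 Mb were 1.17 times those of the 15 Mb before them (1.09 to 1.24). For H3K27me3 regions per Mb the ratio was 1.46 (1.429 to 1.498), and for the share of bases in domains 1.41. On the short arms these ratios were 1.20, 1.42 and 1.38. A CHD5 peak lay in 5.73% of domains of their ends against 2.43% further in. From 50 kb upward it was 6 of 28 domains, or 21.4%, against 4 of 26, or 15.4%. Overlapping peaks had a median share of 67.5% inside H3K27me3 against 30.01%. Median distances to H3K27me3 were 116 and 187 kb, and median CHD5 widths 1589 and 1675 bp. Domain density hardly differed, at 11.5 and 11.4 per Mb.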

How the data were processed

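ChIP-seq region lists of 1 CHD5 pull-down and 1 H3K27me3 library were used, each named in its list's header; no depth is given. Per the file headers, the lists are MACS peaks. Positions refer to hg19 (per the submitters' processing notes). No version, threshold or background library of MACS, and no aligner, is given in the sources used here. Each row carries a score that the authors deposited, with a minimum of 50 and no stated scale, so it was used only within its list.

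Rows were placed by start, H3K27me3 regions were joined over whole chromosomes across gaps of up to 3 kb, and overlap meant at least 1 shared bp. bedtools 2.31.1 gave the same 72 and 52 overlapping peaks. Intervals are exact Poisson or Clopper-Pearson for densities and their ratios, Wilson for shares and log-normal for ratios of shares. With 1 library per group no test between groups was made. Routines were tested on simulated data. Python 3.11.15, numpy 2.4.6, scipy 1.17.1 and matplotlib 3.10.9 were used.

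The stretches and summaries were chosen with earlier results of these data known. Positions named follow rules: the 10 highest-scoring CHD5 peaks, the 10 highest among overlapping ones, the 10 widest CHD5 peaks and domains, the first row of each list, and the 5 fullest steps. Classes by step density and the long-arm ends were added after the values were seen.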

Additional observations from a re-analysis of the deposited data

How the results depend on the processing

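Over 53 alternatives, 48 kept the direction. The overlap ratio of 3.46 stayed between 2.95 and 4.25 in 9 of 10, and was 1.74 for positions 3 to 5 Mb. The CHD5 density ratio of 1.20 became 1.39 with ends of 3 Mb, 1.09 with scores at or above the median, and turned to 0.910 for positions 3 to 5 Mb. The H3K27me3 density ratio of 1.42 became 1.29 with ends of 3 Mb, 1.61 for 3 to 5 Mb, 1.25 against 5 to 15 Mb, 1.98 against the rest of the chromosomes, 1.45 with scores at or above the median and 1.69 as the median of chromosomes. Leaving out 1 chromosome gave 1.24 (chromosome 5) to 1.54 (chromosome 12). The ratio of bases in domains, 1.38, became 1.24 against 5 to 15 Mb, 1.27 with ends of 3 Mb, and 1.22 without chromosome 5 to 1.49 without chromosome 7. The ratio of domain density, 1.17, was 1.03 against 5 to 15 Mb, 1.09 without chromosome 5 and turned to 0.992 with ends of 3 Mb. The width difference of H3K27me3 regions, -3 bp, turned to 3 bp against 5 to 15 Mb or without chromosome 7, and to 5 bp with ends of 3 Mb, and was -6 bp without chromosome 4. The CHD5 width difference of -102.5 bp kept its sign in all 5 alternatives run. For each change the cause was not tested. Ends of 3 Mb for widths, domains and overlap, positions 3 to 5 Mb and overlap without the outermost 500 kb were chosen after the values were seen. Unknown depth and the single library per group limit every value.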
